A study of Mus musculus with 12 samples.

Results

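The genes described here are the EGF receptor family of the skin and its ligands: the receptors Egfr, Erbb2 and Erbb3, the ligands Tgfa, Btc, Ereg, Areg, Hbegf and Nrg1, and the inhibitor Errfi1. They were chosen by symbol, and every probe set that the platform annotation ties to exactly 1 of them was taken. This gave 21 probe sets of 9 genes among 45037 probe sets in all. Areg has no probe set named in the annotation used here and was not analysed. Expression was read as log2 RMA levels on 12 Affymetrix arrays, with CD34+ keratinocytes on 6 and CD34- keratinocytes on the other 6. Both fractions were taken by magnetic sorting (MACS) from the skin of mice labelled C57 DBA, and they differ by whether the cells carried the surface protein CD34, which marks the bulge of mouse hair follicles. The labels give neither age nor sex nor any treatment or engineered allele, and the cells were pooled from at least 6 mice in each of 3 isolations. Each RNA was placed on 2 arrays, so 6 arrays of a fraction stand for 3 RNA samples. Arrays are numbered 1 to 6 in each fraction, and the labels do not tell which of them hold the same RNA.

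EGF receptors are cell-surface kinases that pair with each other when a ligand binds, and they pass the signal on through RAS and ERK, PI3K and AKT, and STAT proteins. EGFR binds all ligands of the family except the neuregulins, ERBB2 has no ligand of its own and serves as partner, and ERBB3 binds neuregulins and has little kinase activity. The ligands are made as membrane proteins and are cut loose by proteases, and in skin the pathway is known for keeping basal keratinocytes dividing, for delaying their differentiation and for shaping the hair cycle.

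The sort marker Cd34 was measured at 9.14 to 10.58 on CD34+ arrays and 2.95 to 3.71 on CD34- arrays, a log2 fold change of 6.92 (limma adjusted p = 3.59e-09). The basal keratins Krt5 and Krt14 averaged 12.17 and 11.83 in CD34+ cells and 13.20 and 13.20 in CD34- cells, so both fractions carried the markers of keratinocytes at high levels. Of 8 bulge markers, 7 were higher in CD34+ cells, beside 7.73% of all genes. The remaining one, the keratin Krt15, was not called on all 12 arrays and leaned the other way. With 1 array left out at a time it was at -0.37 to -0.23, and it was called lower in 1 of 12 fits (limma adjusted p = 0.0333). Of all probe sets, 21.5% (9704) were called, 3439 of them higher (7.64%) and 6265 lower (13.9%) in CD34+ cells. With each array centred on its median the split was 1988 higher and 7455 lower, and the median log2 fold change of all probe sets was -0.038 against 0.064 as deposited. On CD34+ arrays 1, 3 and 5 the values were less widely spread (SD over all probe sets 2.07, 1.92 and 2.02) than on the remaining arrays (2.19 to 2.32), and results that rest on these arrays are given with and without them. For Actb, the 3' control probe set exceeded the 5' one by 3.95 to 5.65 log2 units on CD34+ and 1.82 to 3.24 on CD34- arrays. This difference, an indirect sign of RNA quality, moved with the fraction, and its part in the results was not tested. In such pooled cells, fewer cells of a type and less RNA per cell cannot be told apart.

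Groups were compared with limma across all 45037 probe sets, with a Benjamini-Hochberg adjusted p under 0.05 as the threshold. Positive log2 fold changes mean higher in CD34+ cells, and errors are standard deviations over 6 arrays for means and limma's standard errors (SE) for fold changes. The p-values count arrays that share an RNA as separate and are too small where such arrays are alike. Of the 21 probe sets, 1 was higher and 3 were lower in CD34+ cells, beside 7.64% and 13.9% of all probe sets, which is near the background. Their median log2 fold change was 0.024, against 0.064 over all probe sets. The called probe sets belong to Egfr, Erbb2, Erbb3 and Errfi1. Arrays of the fractions did not overlap for 3 of the 21, against 10.9% of all probe sets.

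The promoters below are those of 4 genes on which the results turn (Erbb2, Egfr, Errfi1 and Epgn, a further ligand), and that of Btc, whose gene stands with Epgn in 1 cluster. They come from RefSeq (build GRCm38.p6), from which promoters were taken for 6 of the 10 genes named at the start. The search left out a chromosome, so a gene without a promoter here can still have one in RefSeq. The promoters run 5′ to 3′ on the gene's strand from 250 bases before to 50 bases after the start. Capitals mark a TATA box (TATAAA), a GC box (GGGCGG), an AP-1 site (TGANTCA), a cyclic AMP response element (TGACGTCA) or a CArG box, searched on both strands, where overlapping GC boxes run into each other. Erbb2 lies on the plus strand at chr11:98412234-98412533, Egfr on the plus strand at chr11:16751953-16752252, Epgn on the plus strand at chr5:91027267-91027566 and Btc on the minus strand at chr5:91402945-91403244. Errfi1 has 2 starts in the table, and the downstream one, on the plus strand at chr4:150854820-150855119, is shown because it holds the motifs.
Erbb2: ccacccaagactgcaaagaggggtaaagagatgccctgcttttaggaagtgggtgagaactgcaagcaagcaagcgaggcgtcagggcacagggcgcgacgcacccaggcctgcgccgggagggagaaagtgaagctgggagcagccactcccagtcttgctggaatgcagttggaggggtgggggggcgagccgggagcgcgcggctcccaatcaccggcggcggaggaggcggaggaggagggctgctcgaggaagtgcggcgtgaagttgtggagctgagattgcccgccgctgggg
Egfr: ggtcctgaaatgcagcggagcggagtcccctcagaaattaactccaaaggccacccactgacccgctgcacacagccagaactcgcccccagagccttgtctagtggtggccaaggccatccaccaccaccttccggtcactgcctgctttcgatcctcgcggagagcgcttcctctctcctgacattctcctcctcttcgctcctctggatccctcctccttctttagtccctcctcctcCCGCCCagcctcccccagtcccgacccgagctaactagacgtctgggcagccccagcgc
Errfi1: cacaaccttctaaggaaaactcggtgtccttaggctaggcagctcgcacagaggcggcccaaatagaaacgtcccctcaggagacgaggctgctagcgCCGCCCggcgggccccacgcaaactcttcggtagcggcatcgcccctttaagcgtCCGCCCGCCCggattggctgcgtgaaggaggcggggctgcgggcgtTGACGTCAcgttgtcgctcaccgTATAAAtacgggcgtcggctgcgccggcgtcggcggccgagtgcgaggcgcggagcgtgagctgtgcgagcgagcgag
Epgn: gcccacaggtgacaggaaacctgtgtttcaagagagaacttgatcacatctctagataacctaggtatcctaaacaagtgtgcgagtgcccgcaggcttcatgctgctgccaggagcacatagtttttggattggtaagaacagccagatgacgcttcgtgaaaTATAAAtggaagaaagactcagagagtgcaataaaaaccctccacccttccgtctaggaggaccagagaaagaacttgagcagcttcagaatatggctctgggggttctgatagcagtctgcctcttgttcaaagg
Btc: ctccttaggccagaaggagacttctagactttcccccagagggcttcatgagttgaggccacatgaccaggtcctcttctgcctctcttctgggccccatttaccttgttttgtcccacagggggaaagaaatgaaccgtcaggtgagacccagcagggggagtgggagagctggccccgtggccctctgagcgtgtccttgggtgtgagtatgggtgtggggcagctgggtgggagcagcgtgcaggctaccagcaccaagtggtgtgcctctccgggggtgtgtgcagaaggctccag

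The Errfi1 window holds a cyclic AMP response element 51 bases before the start, a TATA box 28 bases before it, and 3 GC boxes. A cyclic AMP response element of these letters is found in 1.79% of the 32851 promoters in the table, a TATA box in 13.6% and a GC box in 35.7%. The upstream start of Errfi1 holds 0 of the 5 motifs. The Epgn window has 1 TATA box, 86 bases before the start, and the Egfr window 1 GC box. None of the 5 motifs is in the windows of Erbb2 and Btc. An AP-1 site (7.81% of promoters) or a CArG box (1.63%) is in none of these windows. These matches describe letters in the windows and are not evidence of binding.

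Erbb2 and Erbb3 were lower in CD34+ cells by similar amounts. Erbb2, the partner receptor without a ligand, ranged from 5.72 to 6.80 with a median of 6.38 on CD34+ arrays, against 6.81 to 7.52 with a median of 7.33 on CD34- arrays. The highest CD34+ array stayed just under the lowest CD34- array. Erbb2 averaged 6.29 ± 0.48 in CD34+ and 7.26 ± 0.26 in CD34- cells (SD, n = 6 each), a 1.96-fold lower level (log2 fold change -0.97, SE 0.20, limma adjusted p = 0.00407). The call held without CD34+ arrays 1, 3 and 5 with a smaller change (-0.57, limma adjusted p = 0.0274). It was lost by a narrow margin without arrays 1 and 2 of both fractions, at -0.92 (adjusted p = 0.0502).

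Erbb3, the neuregulin receptor, had 8.75 to 10.03 with a median of 9.49 on CD34+ arrays, against 10.08 to 10.74 with a median of 10.21 on CD34- arrays, by its brighter probe set 1434606_at. These groups, too, lay side by side without overlap. The means were 9.41 ± 0.50 in CD34+ and 10.29 ± 0.24 in CD34- cells (SD, n = 6 each), 1.84-fold lower (log2 fold change -0.88, SE 0.21, limma adjusted p = 0.00811). Without CD34+ arrays 1, 3 and 5 the difference was -0.48 (adjusted p = 0.0579) and the call was lost, and without arrays 1 and 2 of both fractions it was -0.88 (adjusted p = 0.0684). Its other probe set, 1452482_at, was far dimmer (3.92 ± 0.48 in CD34+ and 3.58 ± 0.17 in CD34- cells) and did not pass (0.33, adjusted p = 0.215).

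**Figure D1:**
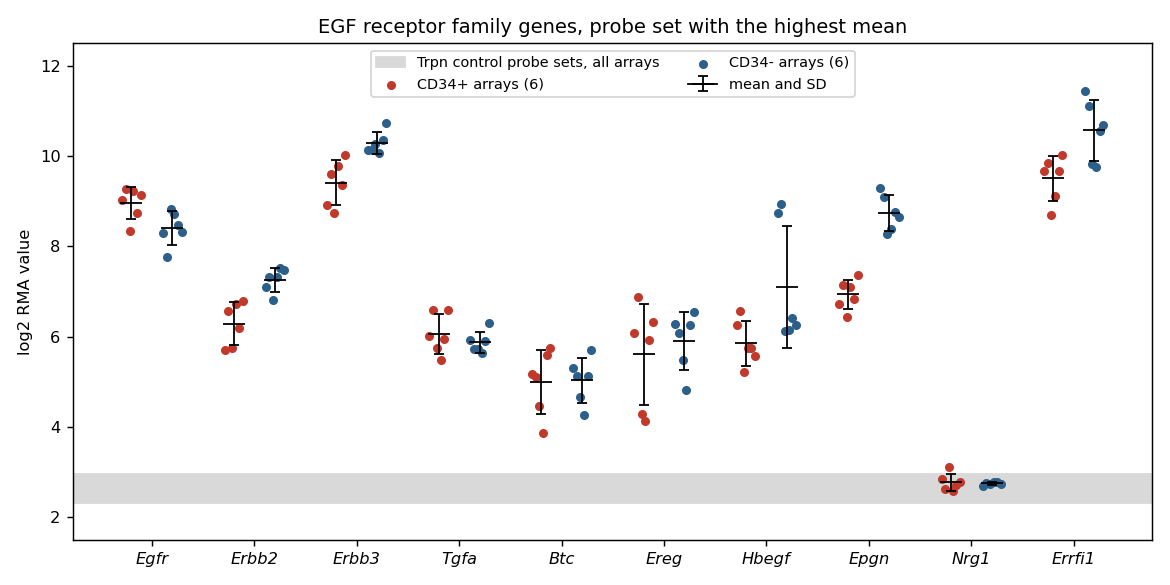
Log2 RMA value of each array for the family genes, by the probe set with the highest mean; points are arrays (CD34+ left, CD34- right, 6 each), bars are mean and SD, and the grey band is the range of the Trpn control probe sets (2.31 to 2.95). Erbb2, Erbb3 and Epgn separate without overlap, Egfr lies higher in CD34+ cells with overlap, and Nrg1 sits at the band.

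Erbb2 and Erbb3 moved alike from array to array as well: after each fraction was centred on its own mean, their values correlated at 0.85 over the 12 arrays (Pearson, a description, since the arrays share fractions, RNAs and array-wide shifts). The lowest values of both genes in CD34+ cells were on arrays 1 and 3. The markers of basal keratinocytes, where the pathway is best known, moved the same way: 5 of the 6 basal markers were lower in CD34+ cells, and their part in these differences was not tested.

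Egfr, the receptor for most ligands of the family, was not called lower in CD34+ cells by any of its 7 probe sets. Its brightest probe set, 1435888_at, ran from 8.34 to 9.27 with a median of 9.09 on CD34+ arrays, against 7.76 to 8.84 with a median of 8.41 on CD34- arrays. On 4 of the 6 CD34+ arrays it was higher than on every CD34- array, and arrays 3 and 5 fell among the CD34- values. The means were 8.96 ± 0.36 in CD34+ and 8.41 ± 0.38 in CD34- cells (SD, n = 6 each), and the log2 fold change of 0.56 (SE 0.19, 95% interval 0.14 to 0.97) missed the threshold (limma adjusted p = 0.0564). It passed without CD34+ arrays 1, 3 and 5 (0.81, limma adjusted p = 0.0197), after further quantile normalization (0.86, adjusted p = 0.000644), and without CD34+ array 3 or CD34- array 3 alone. On all arrays it also passed when only 1 probe set per gene, or only probe sets with a mean above the Trpn controls, were tested. Without arrays 1 and 2 of both fractions it was 0.27 (adjusted p = 0.383).

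The second bright Egfr probe set, 1424932_at, had 8.30, 9.35, 7.69, 9.30, 8.17 and 8.91 on CD34+ arrays 1 to 6, against 8.21, 8.51, 8.40, 8.88, 8.61 and 8.46 on CD34- arrays 1 to 6. The CD34+ values split by array number, with arrays 1, 3 and 5 low and arrays 2, 4 and 6 high. Its log2 fold change was 0.11 (95% interval -0.44 to 0.66, limma adjusted p = 0.772), and without CD34+ arrays 1, 3 and 5 it was 0.68 (adjusted p = 0.0118).

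The probe set 1432647_at was the only one of the 21 that was higher in CD34+ cells. It lies much lower on the scale, at 4.73 to 5.49 with a median of 5.07 on CD34+ arrays, against 3.96 to 4.60 with a median of 4.36 on CD34- arrays. The fractions did not overlap, and the difference was 1.67-fold (log2 fold change 0.74, SE 0.14, limma adjusted p = 0.00185). The call was lost on the even-numbered arrays alone (adjusted p = 0.0961). The other 4 Egfr probe sets had log2 fold changes between -0.24 (1451530_at) and 0.17 (1457563_at) and did not pass. Within the fractions, 1451530_at ran against 1424932_at (Pearson correlation -0.83 over 12 arrays, a description), and without CD34+ arrays 1, 3 and 5 it was lower in CD34+ cells (-0.58, limma adjusted p = 0.00475). The probe sets of Egfr thus disagree with each other.

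**Figure D2:**
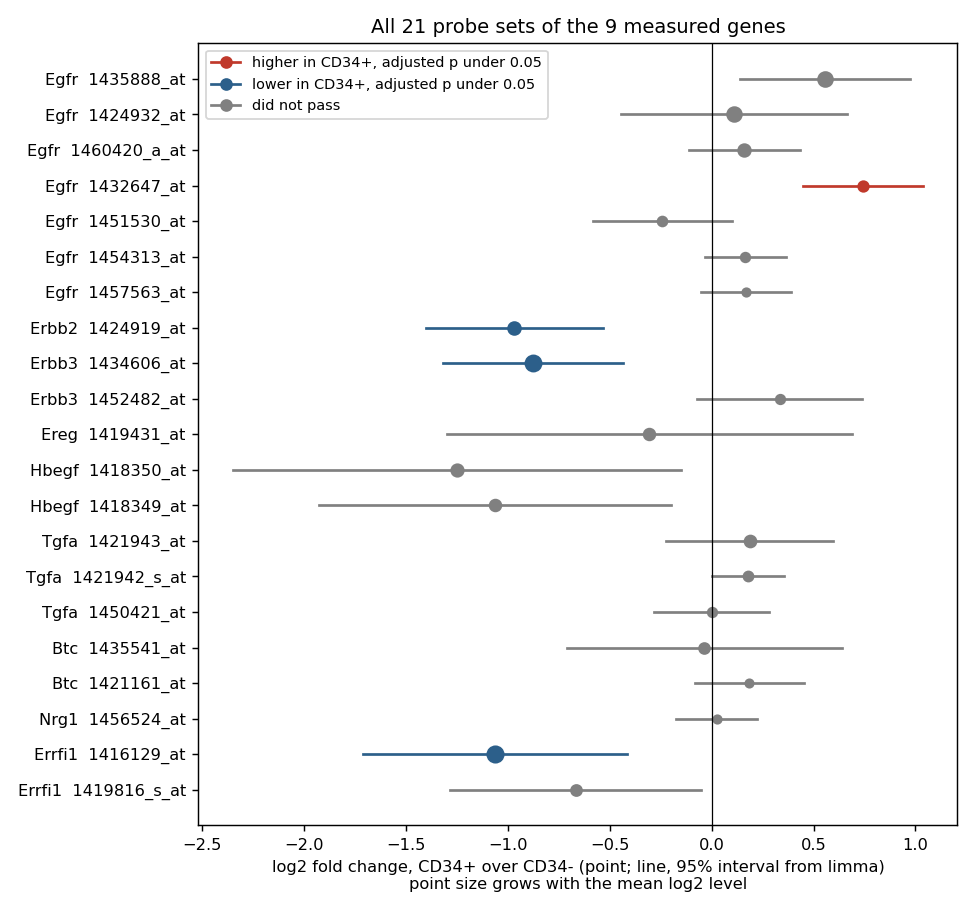
Log2 fold change of CD34+ over CD34- cells for all 21 probe sets, with 95% intervals from limma; the size of a point grows with the mean level and colour marks the adjusted p under 0.05. Only 1 probe set of Egfr is coloured as higher, and 1 each of Erbb2, Erbb3 and Errfi1 as lower; some grey intervals also leave 0 to one side without passing the adjusted threshold, both of Hbegf among them.

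Because Egfr and its partners were read on the same arrays, their difference within each array was compared between the fractions, a comparison chosen after the values were seen. Egfr (1435888_at) minus Erbb2 was 2.67 ± 0.34 in CD34+ and 1.14 ± 0.54 in CD34- cells (SD, n = 6 each), a shift of 1.53 on the log2 scale. For Egfr minus Erbb3 it was -0.45 ± 0.34 in CD34+ and -1.88 ± 0.45 in CD34- cells, a shift of 1.43. With the second bright probe set the shifts were 1.08 against Erbb2 and 0.99 against Erbb3. The ranges of the fractions did not overlap in any of the 4 comparisons, but for the second bright probe set against Erbb3 they all but touched. There the lowest CD34+ value was -1.1956 and the highest CD34- value was -1.1985. Without CD34+ arrays 1, 3 and 5 the shifts were 1.37, 1.29, 1.24 and 1.15. These are given as a description with no test, since the differences were formed after the genes' own changes were known. The levels of different probe sets are not on 1 scale, so the change in a difference can be read here but its size within a fraction cannot.

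The 5 measured ligands among the genes named at the start (Tgfa, Btc, Ereg, Hbegf and Nrg1) had no call in either direction. Tgfa, the classic keratinocyte-made ligand of EGFR, had 5.49 to 6.59 with a median of 5.98 on CD34+ arrays, against 5.65 to 6.31 with a median of 5.83 on CD34- arrays by 1421943_at. The fractions overlapped almost fully, and the log2 fold change was 0.19 (95% interval -0.22 to 0.60, limma adjusted p = 0.487). Its dimmer probe sets gave 0.18 (1421942_s_at, adjusted p = 0.133) and -0.00 (1450421_at, adjusted p = 0.997).

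Btc, or betacellulin, which binds EGFR and ERBB4, had 5.18, 5.10, 4.47, 3.87, 5.60 and 5.75 on CD34+ arrays 1 to 6, against 5.31, 5.14, 4.66, 4.26, 5.12 and 5.70 on CD34- arrays 1 to 6 (1435541_at). Arrays 3 and 4 were the lowest in each fraction. Its log2 fold change was -0.04 (95% interval -0.71 to 0.64, limma adjusted p = 0.942). The other Btc probe set, 1421161_at, lay near the control level (2.74 in CD34+ and 2.56 in CD34- cells).

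Ereg, or epiregulin, a low-affinity ligand of the same receptors, had 6.08, 6.88, 4.29, 4.13, 5.93 and 6.33 on CD34+ arrays 1 to 6, against 6.28, 6.07, 5.48, 4.83, 6.26 and 6.55 on CD34- arrays 1 to 6. Again arrays 3 and 4 were the lowest of each fraction, and the spread between arrays (SD 1.13 in CD34+ and 0.64 in CD34- cells) was wider than the difference. The log2 fold change was -0.31 (95% interval -1.30 to 0.69, limma adjusted p = 0.644). After centring each fraction, Ereg correlated at 0.86 with Btc and at 0.86 with Tgfa over the 12 arrays, and Tgfa at 0.77 with Btc. These are descriptions of arrays that share RNA, and the labels do not say whether arrays of the same number came from 1 isolation. Epgn, Ereg, Areg and Btc are neighbours in this order on mouse chromosome 5, with no other protein-coding gene between them.

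Hbegf, a ligand that also binds heparin and is made in wounded epidermis, had 6.26, 6.57, 5.21, 5.75, 5.76 and 5.56 on CD34+ arrays 1 to 6, against 8.75, 8.94, 6.13, 6.15, 6.41 and 6.25 on CD34- arrays 1 to 6 (1418350_at). The CD34- arrays 1 and 2 stood more than 2 log2 units above the other CD34- arrays, CD34+ arrays 1 and 2 were the highest of theirs, and the fractions overlapped. The means were 5.85 ± 0.49 in CD34+ and 7.10 ± 1.35 in CD34- cells (SD, n = 6 each), a log2 fold change of -1.25 (95% interval -2.35 to -0.15) that did not pass (limma adjusted p = 0.0970). Without arrays 1 and 2 of both fractions the difference was -0.66 and passed (limma adjusted p = 0.0236). The second Hbegf probe set, 1418349_at, gave -1.06 (adjusted p = 0.0749), again with its highest values, 7.51 and 7.85, on CD34- arrays 1 and 2, and its difference was -0.47 (adjusted p = 0.143) without those arrays.

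Nrg1, a neuregulin that binds ERBB3 and ERBB4, had 2.57 to 3.11 on CD34+ arrays, against 2.70 to 2.79 on CD34- arrays, close to the Trpn control range of 2.31 to 2.95. Its log2 fold change was 0.02 (95% interval -0.18 to 0.22, limma adjusted p = 0.863). RMA gives no detection call, and at this level the values cannot be told from no transcript.

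**Figure D3:**
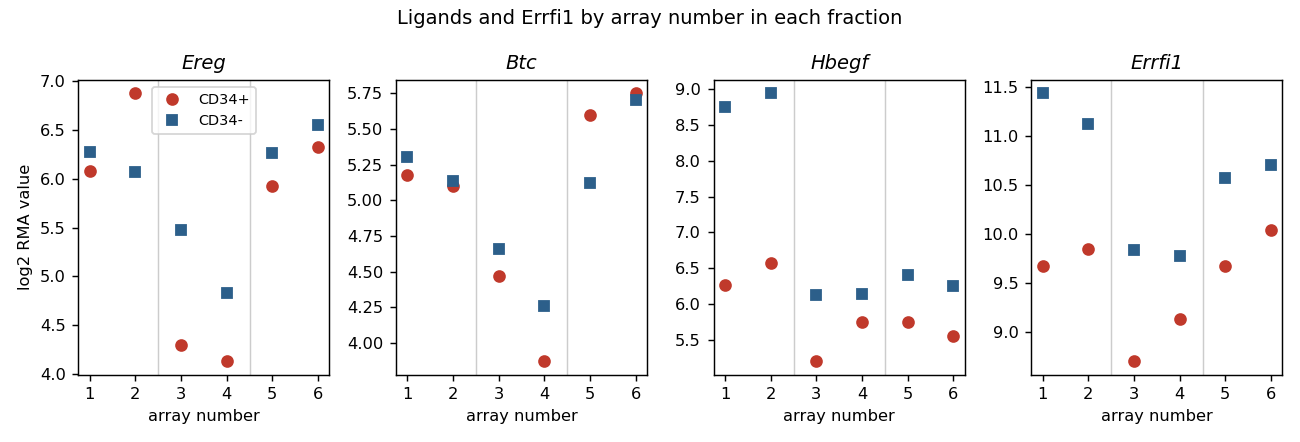
Log2 RMA value of Ereg, Btc, Hbegf and Errfi1 (brightest probe set) by array number, CD34+ as circles and CD34- as squares; grey lines part arrays 1 and 2, 3 and 4, and 5 and 6. Ereg and Btc are lowest on arrays 3 and 4 in each fraction, and CD34- arrays 1 and 2 are highest for Hbegf and Errfi1.

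Errfi1, which binds the kinase domain of EGFR and its partners and dampens their signal, was lower in CD34+ cells. It had 9.67, 9.85, 8.70, 9.13, 9.67 and 10.04 on CD34+ arrays 1 to 6, against 11.43, 11.12, 9.83, 9.77, 10.57 and 10.70 on CD34- arrays 1 to 6. CD34+ arrays 2 and 6 lay above CD34- arrays 3 and 4, so the fractions overlapped, and the highest values of all were on CD34- arrays 1 and 2. The means were 9.51 ± 0.50 in CD34+ and 10.57 ± 0.67 in CD34- cells (SD, n = 6 each), a 2.09-fold lower level (log2 fold change -1.06, SE 0.30, limma adjusted p = 0.0229). The call depended on the setting: it was lost without CD34- array 2 (adjusted p = 0.0514), without CD34+ arrays 1, 3 and 5 (-0.90, adjusted p = 0.136), without arrays 1 and 2 of both fractions (-0.84, adjusted p = 0.126), and with array weights or quantile normalization. The dimmer probe set 1419816_s_at gave -0.67 (adjusted p = 0.111). After centring, Errfi1 correlated at 0.77 with Hbegf (1418349_at) and at 0.78 with Ereg over the 12 arrays, again as a description.

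Counted by gene with the brightest probe set of each, 3 of 9 passed, beside 25.2% of 18193 genes. None was higher and 3 were lower, beside 7.73% and 17.5% of all genes, and 2 of the 9 did not overlap, beside 12.9%. The median over the 9 genes was -0.31, against 0.04 over all genes.

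Beyond the family members named at the start, Epgn, or epigen, a ligand of EGFR with low affinity, was lower in CD34+ cells. It had 6.44 to 7.36 with a median of 6.97 on CD34+ arrays, against 8.28 to 9.30 with a median of 8.71 on CD34- arrays. The gap between the fractions was wide relative to their spread. The means were 6.94 ± 0.33 in CD34+ and 8.75 ± 0.40 in CD34- cells (SD, n = 6 each), a 3.51-fold lower level (log2 fold change -1.81, SE 0.19, limma adjusted p = 3.73e-05). The call held under all of the alternatives run, between -1.91 and -1.51. Epgn stands next to Ereg on the chromosome, and Ereg and Btc of the same cluster gave no call.

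Egf, the founding ligand, was at 3.53 ± 0.34 in CD34+ and 3.33 ± 0.18 in CD34- cells (SD, n = 6 each), with no call (adjusted p = 0.332, limma). Erbb4, the fourth receptor, was within the control range at 2.52 in CD34+ and 2.31 in CD34- cells. The 7 probe sets of Nrg2, Nrg3 and Nrg4 lay between 2.39 and 4.33 in the fraction means, with log2 fold changes between -0.17 and 0.38 and none past the threshold. By these probe sets, the receptors above the control level in both fractions were Egfr, Erbb2 and Erbb3.

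The genes around the family were taken from lists by role, each gene by its brightest probe set, and counts are read beside 7.73% higher and 17.5% lower over all genes. The proteases that cut ligands loose and the proteins that escort them gave 0 higher and 3 lower of 6, with a median of -0.48. Rhbdf2 (iRhom2), which carries ADAM17 to the surface, had 5.76 ± 0.30 in CD34+ and 7.05 ± 0.24 in CD34- cells (SD, n = 6 each; log2 fold change -1.30, limma adjusted p = 6.30e-05). Frmd8, which stabilises that complex, was lower with a log2 fold change of -0.68 (adjusted p = 0.000717), as was the rhomboid protease Rhbdl2 at -0.76 (adjusted p = 0.0190), though 1 of its 2 other probe sets gave -0.08 (1440618_at, adjusted p = 0.779). The metalloproteases of the list did not pass, with Adam17 at -0.25 (adjusted p = 0.408) and Adam10 at 0.11 (adjusted p = 0.823).

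Of the adaptors and RAS to ERK genes, 1 was higher and 3 were lower of 13 measured, with a median of -0.22. Eps8, an EGFR substrate that works on actin, had 7.27 ± 0.84 in CD34+ and 5.38 ± 0.23 in CD34- cells (log2 fold change 1.89, limma adjusted p = 0.000861, n = 6 each). Lower were the kinase Map2k1 (log2 fold change -0.65), the exchange factor Sos2 (-0.64) and the GTPase Nras (-0.61; adjusted p = 0.00216, 0.0258 and 0.0343). Among the PI3K, PLC and STAT genes, 2 were higher and 8 lower of 14, with a median of -0.60. Pik3cb had 7.12 ± 0.52 in CD34+ and 8.20 ± 0.20 in CD34- cells (SD, n = 6 each; log2 fold change -1.08, limma adjusted p = 0.00239). Akt2 (-0.96), Stat5b (-0.94) and Akt1 (-0.80) were lower, and Pik3r1, the regulatory subunit of PI3K, was higher by 0.79 (adjusted p = 0.0242). Of the dimmer Akt1 probe sets, 1425711_a_at was lower too, at -0.92 (adjusted p = 0.0187), and 1442759_at did not pass. The Akt1 probe set 1440950_at passed in the opposite direction at 0.39 (adjusted p = 0.0354). Another Pik3r1 probe set was at -0.13 (adjusted p = 0.627). Other probe sets of Stat5b (1422102_a_at, 0.36, adjusted p = 0.301) and Akt2 (1455703_at, 0.05, adjusted p = 0.751) did not follow the fall.

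Of 19 inhibitors and degradation genes, 1 was higher and 9 were lower, with a median of -0.50. Ptprk, a phosphatase that removes phosphate from EGFR, had 9.19 ± 0.65 in CD34+ and 6.59 ± 0.22 in CD34- cells, 6.07-fold higher (log2 fold change 2.60, limma adjusted p = 2.03e-05). Of its 6 other probe sets, 1423277_at was higher too, by 1.06, and the other 5 did not pass, among them the brightest of the 6 (1443699_at, 0.11, adjusted p = 0.897). Usp8 (-1.07), Lrig1 (-1.002), Ptpn1 (-0.98) and Spred2 (-0.87), which act on receptor sorting, receptor level, receptor phosphate and RAS signalling, were lower, with limma adjusted p between 0.00303 and 0.0154. The second bright Lrig1 probe set, 1449893_a_at, was lower too, at -1.29 (adjusted p = 0.00147), while a dimmer one, 1419928_at, passed in the opposite direction at 0.37 (adjusted p = 0.0309). The other Usp8 probe set, 1446807_at, gave 0.02 (adjusted p = 0.936), and of the 4 other Spred2 probe sets 1 was lower (1441802_at, -0.34).

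Of 15 genes that ERK switches on or that feed back on it, 2 were higher and 5 lower, with a median of -0.47. Dusp6, a phosphatase that turns ERK off, had 5.68, 5.47, 4.42, 5.00, 5.71 and 5.67 on CD34+ arrays 1 to 6, against 7.99, 8.07, 6.70, 6.72, 6.93 and 7.66 on CD34- arrays 1 to 6. All CD34+ arrays lay below all CD34- arrays, at a 4.05-fold lower level (log2 fold change -2.02, SE 0.30, limma adjusted p = 0.000389). Also lower were the AP-1 subunit Junb (log2 fold change -1.96), the phosphatase Dusp1 (-1.16) and the transcription factor Egr1 (-0.56; adjusted p = 0.000268, 0.000398 and 0.0101). Phlda1, an epithelial gene that in these lists stands with the ERK targets, was higher by 1.17 (adjusted p = 0.0348). Several calls were lost when 1 array or a group of arrays was left out, without a change of sign. With 1 array left out, Nras stayed at -0.72 to -0.50 and Phlda1 at 0.93 to 1.36. With 1 array left out at a time, Nras passed in 4 of 12 fits (lost without CD34+ array 1, 3 or 5 or any CD34- array but array 2) and Phlda1 in 5 (lost without CD34+ array 1 or 2 or any CD34- array but array 2). Sos2 passed in 8 of 12 (lost without CD34+ array 5 or CD34- array 1, 4 or 6) and Pik3r1 in 10 (lost without CD34+ array 1 or CD34- array 3). Without CD34+ arrays 1, 3 and 5, calls were lost for Rhbdl2 (-0.70), Sos2 (-0.34), Nras (-0.21), Akt1 (-0.46), Lrig1 (-0.48) and Egr1 (-0.43) (adjusted p from 0.0556 to 0.346), and after quantile normalization for Sos2 (-0.35) and Map2k1 (-0.34). Dusp6, Eps8, Ptprk, Rhbdf2, Pik3cb, Akt2, Usp8 and Dusp1 kept their calls under all alternatives run.

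**Figure D4:**
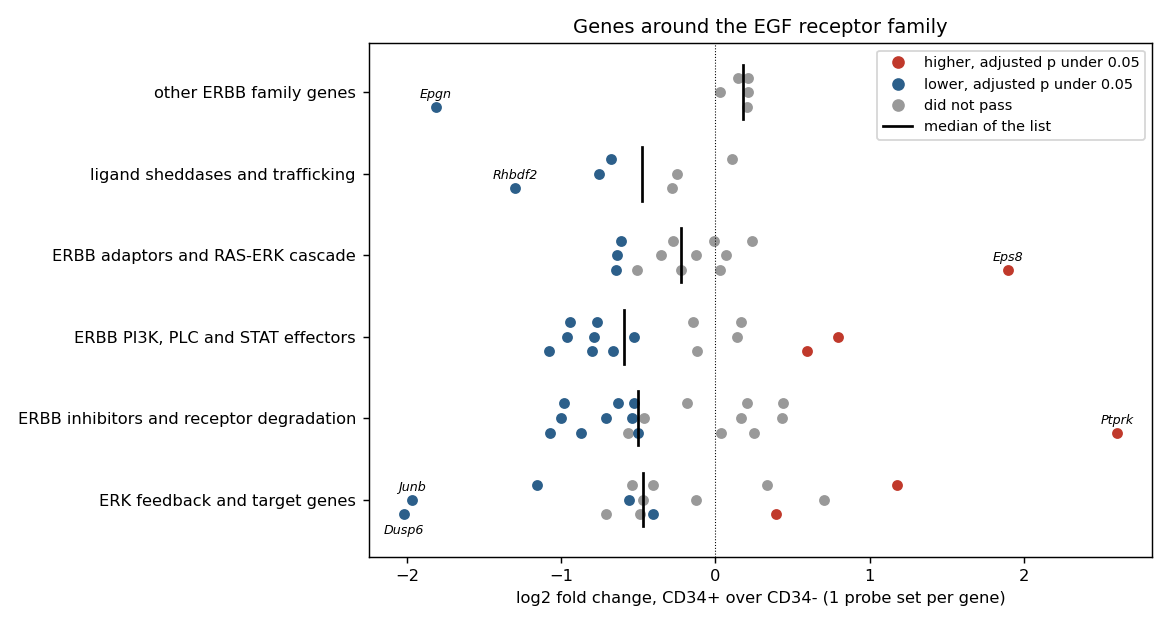
Log2 fold change of CD34+ over CD34- cells for the genes around the EGF receptor family, 1 probe set per gene, by list; colour marks the adjusted p under 0.05 and black bars are list medians. Ptprk and Eps8 lie farthest above 0, and Dusp6, Junb and Epgn farthest below it.

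Cell types other than keratinocytes also moved with the fraction, and their part in the results above was not tested. T-cell markers were lower in CD34+ cells for 5 of 5 genes, with a summed level of 8.06 to 9.30 on CD34+ and 10.35 to 11.27 on CD34- arrays on the log2 scale. Cd3g averaged 5.78 in CD34+ and 9.07 in CD34- cells, and Ptprc 6.64 in CD34+ and 9.44 in CD34- cells. Langerhans and myeloid markers were lower for 4 of 6 (summed level 8.84 to 9.43 on CD34+ and 9.50 to 10.59 on CD34- arrays), led by H2-Ab1 at -1.23. H2-Aa was at -0.58 by its brightest probe set (limma adjusted p = 0.0708). Another H2-Aa probe set, 1452431_s_at, was lower at -1.52 (adjusted p = 0.000483), and 1438858_x_at and 1443783_x_at did not pass. Fibroblast markers were higher for 4 of 8 (10.08 to 12.24 on CD34+ and 9.50 to 10.65 on CD34- arrays), with the 2 brightest, Vim at 0.68 and Mmp2 at -0.20, not passing. Melanocyte and Schwann-cell markers were mixed, with 1 higher and 1 lower of 7 and of 4. The higher one was the same gene, Sox10 (0.49), in both lists. It was called in 4 of 12 fits with 1 array left out, and its probe sets 1424985_a_at and 1425369_a_at did not pass. Endothelial markers gave 0 calls of 5, and sebaceous markers 0 higher and 2 lower of 4. No marker of these lists was at 0, since RMA gives no zeros, and 1 endothelial marker averaged within the control range in CD34- cells.

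The genes whose brightest probe set ran most like Egfr (1435888_at) over all 12 arrays were Zfp760 (Pearson correlation 0.950), Ddhd2 (0.934) and Aldh5a1 (0.924). After centring each fraction on its mean they were Kctd1 (0.952), Slc25a40 (0.945) and Angel2 (0.941). These correlations rank genes over 12 arrays that share array-wide shifts, and they carry no test.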

How the data were processed

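Expression of CD34+ and CD34- mouse keratinocytes was measured on 12 Affymetrix mouse expression arrays, 6 a fraction. These stand for 3 RNA samples a fraction, and that number limits the precision. The deposited values are log2 expression levels per probe set made by the authors with RMA, per the submitters' processing notes; RMA pulls arrays to a common distribution, shrinks changes of dim probe sets and gives no detection call. Of 45101 probe sets, 64 controls were set aside. The Trpn controls mark the low end of the scale.

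Probe sets were named through GEO's platform annotation: 34945 carry 1 gene, 932 several and 9160 none, and those with several were given no name. Fractions were compared with limma 3.58.1 (R 4.3.3, lmFit and eBayes) over 45037 probe sets, with Benjamini-Hochberg adjustment, a threshold of 0.05 and no block. The fit was tested on simulated data in which all arrays were drawn independently. That simulation cannot show the effect of arrays that share an RNA. All 12 arrays entered as separate samples, although each RNA was placed on 2. Same-numbered arrays did not deviate together in all 6 pairs (correlations -0.24 to 0.49). Arrays 1, 4 and 6 were each most like the same number of the other fraction (0.43, 0.49 and 0.40), while pairs 2 and 5 were negative. No label ties the numbers, so they were not taken as pairs. No 2 arrays held identical values.

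The family genes and the gene lists were chosen with earlier results of these data known. Named are all family genes, of each pathway list up to 5 passing genes with the largest change, of each cell type list the 2 brightest markers and those a result turns on, and the 3 genes most like Egfr by 2 measures. Alternatives were other blocks, normalizations, filters, weights and subsets of arrays. The isolation block and the pair means took arrays 1-2, 3-4 and 5-6 as groups, which no label ties together. The isolation block, the fit without arrays 1 and 2, and the receptor differences were chosen after seeing the data. Promoters are from RefSeq.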

Additional observations from a re-analysis of the deposited data

Results flagged for a closer look

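Of 148 groups of 6 arrays examined (74 probe sets in each fraction), 13 held 1 array whose gap to the nearest other array was a large part of the group's range, and chance gives about 1 in 20 groups. Of the family members, Erbb3 by its dim probe set 1452482_at was at 4.84 on CD34+ array 3, with the others at 3.56 to 3.96. Hbegf (1418349_at) was at 5.74 on CD34+ array 2, with the others at 5.09 to 5.25.

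Among the neuregulins near the low end, Nrg2 (1444491_at) was at 5.20 on CD34+ array 3, with the others at 4.02 to 4.36, and at 3.97 on CD34- array 2, with the others at 4.11 to 4.18. Nrg2 (1457283_at) was at 3.34 on CD34+ array 3 and Nrg3 (1460289_at) at 2.43 on CD34- array 2.

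Of the genes around the family, Sos2 was at 6.46 on CD34+ array 3, Map2k1 at 8.03 on CD34- array 2, Lrig1 at 10.09 on CD34- array 4 and Dusp1 at 13.24 on CD34- array 1. Of the cell type markers, Ptprc was at 7.91 on CD34+ array 4, Eng at 6.24 on CD34+ array 3 and Krt10 at 12.98 on CD34- array 2. CD34+ array 3 held 5 of the 13 and CD34- array 2 held 4.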

How the results depend on the processing

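Over all probe sets 9704 were called, 4750 with 1 probe set per gene, 2348 on the even-numbered arrays, 4640 without arrays 1 and 2 of both fractions, and 7439 to 12318 when 1 array was left out; the first 3 test fewer probe sets or fewer arrays. Of the 21 family probe sets 4 were called, 2 on the even-numbered arrays, 2 without arrays 1 and 2, and 3 to 6 with 1 array left out. Of the 9 genes 4 had a called probe set, 2 without CD34+ arrays 1, 3 and 5, 2 on the even-numbered arrays, 2 without arrays 1 and 2, and 3 to 5 with 1 array left out; CD34- array 2 gave the 3 and CD34- arrays 3 and 4 the 5. The replicate block (array number) gave 6 probe sets and 10209 in all, and the isolation block (arrays 1-2, 3-4 and 5-6) gave 6. Hbegf was added by both (limma adjusted p = 0.0148 and 0.0351 with the replicate block). Numbers are not known to mark shared mice, and no label says that these groups are isolations. Within them, deviations from the fraction mean correlated at -0.53 to -0.21 in CD34+ and -0.09 to 0.34 in CD34- cells. Besides the losses of family members in the report, Errfi1 was no longer called on pair means (adjusted p = 0.0923), nor were Errfi1 (-0.86) and Erbb3 (-0.51) on the even-numbered arrays. Of the genes around the family and the markers named, calls were lost for 17 on even-numbered arrays, 10 without arrays 1 and 2 of both fractions (Rhbdl2, Sos2, Nras, Stat5b, Pik3r1, Lrig1, Ptpn1, Phlda1, Egr1 and Scd1), 8 without CD34+ arrays 1, 3 and 5, 4 on pair means (Rhbdl2, Pik3r1, Phlda1 and Sox10), 3 with median centring (Pik3r1, Phlda1 and Sox10) and 2 with quantile normalization. Epgn kept its call throughout.

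Reversals of sign were found for log2 fold changes that had no call. With array quality weights Ereg was at 0.055, Btc (1435541_at) at 0.25, Nrg1 at -0.0018 and Nrg3 (1460289_at) at -0.040. With quantile normalization Nrg1 was at -0.071, Nrg3 at -0.064 (1460289_at) and -0.0051 (1421017_at), Nrg4 (1457123_at) at -0.043 and Mmp2 at 0.12. With median centring Nrg1 was at -0.078, Nrg3 at -0.070 (1460289_at) and -0.053 (1421017_at), and Nrg4 (1457123_at) at -0.029. Without CD34+ arrays 1, 3 and 5 Nrg1 was at -0.087, Nrg2 (1444491_at) at -0.064, Nrg3 at -0.064 (1460289_at) and -0.0072 (1421017_at), Vim at -1.26, Mmp2 at 0.11 and Kdr at -0.081. On even-numbered arrays Nrg1 was at -0.097, Nrg2 (1444491_at) at -0.035, Nrg4 (1421681_at) at -0.0052, Vim at -0.78, Mmp2 at 0.066 and Kdr at -0.018. Without arrays 1 and 2 of both fractions Egfr (1424932_at) was at -0.070 and Tgfa (1450421_at) at 0.043. With 1 array left out at a time, Egfr (1424932_at) ran from -0.037 to 0.30, Tgfa (1450421_at) from -0.11 to 0.077, Btc (1435541_at) from -0.19 to 0.19, Nrg1 from -0.043 to 0.064, Nrg3 (1460289_at) from -0.037 to 0.061 and Nrg4 (1457123_at) from -0.013 to 0.13. The causes were not tested, and signal near the Trpn controls limits what the neuregulins can show.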
